A study of Mus musculus with 6 samples.

Results

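The integrated stress response genes followed here in whole mouse embryonic hearts are Atf4, Atf5, Ddit3, Asns, Trib3, Chac1, Sesn2, Psat1, Phgdh and Mthfd2. They were taken by name, with earlier results of these data known. Each of the 10 symbols matched 1 of the 45792 genes in the raw count table. Hearts of embryonic day 13.5 were compared in 2 groups of 3. The control group is labelled wild-type, and the other, labelled Tie2Cre INO80 flox/flox, carries the Tie2Cre transgene and floxed alleles of Ino80, a chromatin remodeller. Every heart is labelled C57BL/6, and no agent is named for either group. Tie2Cre drives recombination in endothelial cells, endocardium included, and in blood cells of related origin, so that cardiomyocytes were to keep Ino80. For the study in general, every genotype but the full knockout counts as control, and controls are said to be litter mates throughout. It describes crosses of Cre-carrying Ino80 flox/+ males with fl/fl females and calls its transgenic mice mixed in background. The labels of these hearts do not say so, and whether a control carried a floxed allele is not known here. Nothing in the labels states that the hearts of a group came from separate litters, so p-values cover the spread between these hearts only. In RNA from whole hearts, fewer cells of a type and less RNA per cell cannot be told apart.

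The integrated stress response is the program by which a cell answers amino acid shortage, unfolded protein in the endoplasmic reticulum (ER), haem shortage or mitochondrial faults. Kinases that sense each stress phosphorylate the translation factor eIF2, which slows protein synthesis in general while the mRNA of ATF4, a bZIP transcription factor, is translated more. ATF4 then switches on genes for making and importing amino acids, for charging tRNA and, if stress lasts, for cell death. Because ATF4 is controlled largely at translation, the mRNA counts analysed here measure neither its protein nor the phosphorylation of eIF2. In heart muscle the program is known as an answer to failing mitochondria, and the enzymes it raises for serine, glycine and one-carbon units also serve dividing cells in making nucleotides.

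ATF4 binds, with a C/EBP partner, the C/EBP-ATF response element, whose core was searched as TGATGNAA on both strands. RefSeq promoter windows of GRCm38.p6, from 250 bases before to 50 bases after a start site, were found for all 10 genes. The core was present for 3 of the 10, and 4.51% of all 27025 genes with a window held it. These 3 stretches are shown as the places where the letters of the element occur near a start site of the genes described. Each runs 5′ to 3′ on the strand of its gene, with the core in capitals and 10 bases on either side. For Chac1 and Trib3 the core lies on the opposite strand and is printed as its reverse complement.
Asns: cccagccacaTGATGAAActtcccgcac
Chac1: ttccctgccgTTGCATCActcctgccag
Trib3: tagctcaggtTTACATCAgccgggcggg
The Asns stretch is chr6:7693215-7693242 on the minus strand, and its core begins 23 bases before the RefSeq start site, which is inside the GENCODE gene model, since that model starts further upstream. That of Chac1 is chr2:119351039-119351066 on the plus strand, with the core beginning 193 bases before the RefSeq start and also upstream of the GENCODE model. That of Trib3 is chr2:152344029-152344056 on the minus strand, with the core beginning at base 15 counted from the RefSeq start, which is upstream of the GENCODE model, since that one starts further downstream. A match of letters is a description and not a measured site, and for the other 7 genes these letters were not in the window.

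Levels are given as CPM, counts per M counts of a library after TMM scaling, which corrects library totals for composition. A log2 fold change sets the mutant-labelled hearts, called mutants here for short, over the controls. The libraries held from 28948836 to 89675692 counts, and 17125 genes, with all 10 among them, had enough counts to be tested by edgeR's quasi-likelihood method. Ino80 was at 30.2, 31.6 and 32.7 CPM in control replicates 1 to 3 against 36.5, 33.7 and 31.8 CPM in mutant replicates 1 to 3. Its counts over the whole gene thus overlapped between the groups, and they include exons outside the floxed one as well as cells without Cre. Cardiomyocyte markers summed to between 22025 and 27010 CPM and endothelial markers to between 789 and 996 CPM, with 8 of 8 measured on each list. Erythroid markers varied most, from 7201 to 30383 CPM in controls and from 5083 to 8845 CPM in mutants, with control replicate 3 highest. Xist, transcribed from the inactive X chromosome, was at 548 CPM in control replicate 3, at 693 and 534 CPM in mutant replicates 1 and 2, and at 0.44 CPM or less in the other 3 hearts. The labels give no sex.

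The transcription factors of the response stood at nearly the same level in both groups. Atf4 (ENSMUSG00000042406.7, chromosome 15, 80255184 to 80257541 in GENCODE vM21 on GRCm38, plus strand) was at 83.9, 94.7 and 98.1 CPM in control replicates 1 to 3 against 84.9, 85.5 and 93.4 CPM in mutant replicates 1 to 3. Both the lowest and the highest heart were controls, and the mutants lay between them. Means were 92.2 ± 7.43 CPM and 87.9 ± 4.71 CPM (SD, n = 3 each), a log2 fold change of -0.07 ± 0.08 (SE; edgeR adjusted p = 0.65). The 95% confidence interval of this difference reached from -0.25 to 0.12.

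Atf5 encodes a related bZIP factor, likewise translated under stress and tied to mitochondrial stress (chromosome 7, 44812256 to 44816658). Controls were at 14.9, 15.1 and 18.5 CPM and mutants at 14.3, 14.9 and 15.6 CPM. Control replicate 3 stood above the other 5 hearts, which lay close together. This gave a log2 fold change of -0.12 (95% interval -0.37 to 0.14), and without control replicate 3 it was -0.01.

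Ddit3 encodes CHOP, the factor that ATF4 induces when stress is prolonged and that favours cell death (chromosome 10, 127290774 to 127296288). It was at 8.12, 8.61 and 9.20 CPM in controls and at 7.65, 8.11 and 7.62 CPM in mutants. The groups did not overlap, but only just, since 8.11 CPM in mutant replicate 2 lay beside 8.12 CPM in control replicate 1. The log2 fold change of -0.15 ± 0.11 (SE) did not pass (edgeR adjusted p = 0.47). Ddit3 overlaps Mars on the opposite strand, and Atf5 overlaps Nup62 and Il4i1. Whether strand was used in counting is not given in the sources used here, and without strand the reads of such pairs cannot be told apart.

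Of the genes downstream, Trib3, Chac1 and Sesn2 overlapped between the groups. Trib3 encodes a pseudokinase that ATF4 and CHOP induce and that feeds back on them (chromosome 2, 152337422 to 152344032, minus strand). Controls were at 3.39, 1.94 and 3.55 CPM and mutants at 1.87, 2.59 and 1.57 CPM. Control replicate 2 lay among the mutants, and the other 2 controls lay above every mutant. The log2 fold change of -0.56 ± 0.29 (SE; edgeR adjusted p = 0.32) was the lowest of the 10, with an interval from -1.23 to 0.11.

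Chac1 encodes an enzyme that degrades glutathione and is readily induced by ATF4 (chromosome 2, 119351229 to 119354381). It was the least abundant of the 10, at 0.29, 0.20 and 0.56 CPM in controls and 0.41, 0.47 and 0.41 CPM in mutants. These levels rest on 11, 6 and 18 counts in controls and 38, 20 and 12 counts in mutants. Its log2 fold change of 0.29 had an interval from -0.65 to 1.24, so that a change of either sign inside those bounds is compatible with these counts. Sesn2 encodes a sestrin that restrains mTORC1 when leucine is short (chromosome 4, 132492032 to 132510501). Controls were at 14.4, 9.94 and 15.4 CPM and mutants at 14.9, 13.8 and 15.6 CPM. Control replicate 2 alone stood low, and without it the log2 fold change went from 0.15 to -0.012.

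**Figure D1:**
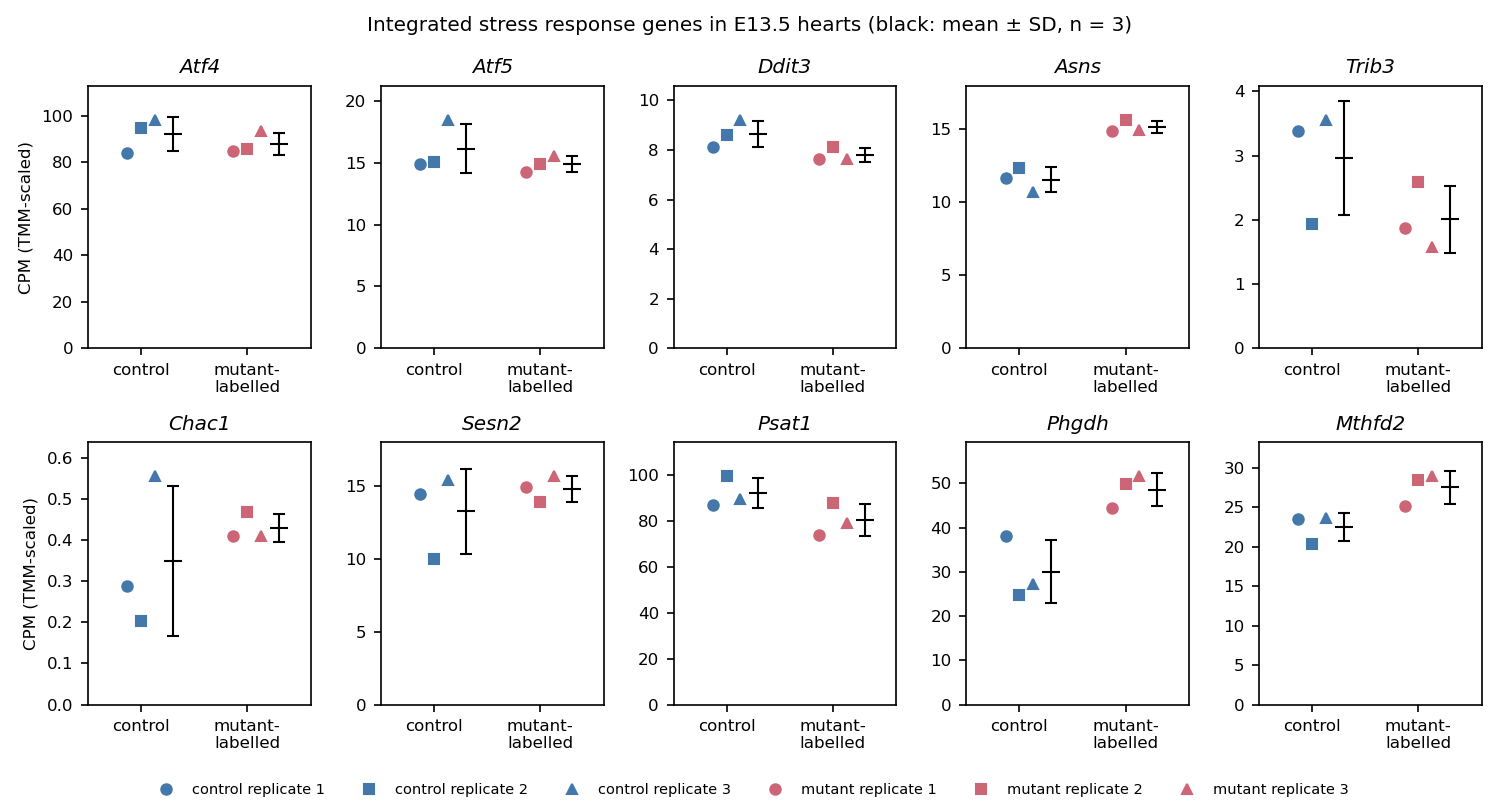
CPM (TMM-scaled, linear axes from 0) of the 10 genes in each of 3 control and 3 mutant-labelled hearts, with a symbol for each replicate and the mean ± SD (n = 3) in black. Phgdh, Asns and Mthfd2 have all 3 mutants above all 3 controls, Ddit3 has them just below, and the other 6 genes overlap.

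Of the 4 biosynthetic enzymes, Asns, Phgdh and Mthfd2 were higher in every mutant than in every control and Psat1 was not. These were the only 3 of the 10 genes apart upward, beside 14.3% of all tested genes. Asparagine synthetase, the product of Asns (ENSMUSG00000029752.10, chromosome 6, 7675169 to 7693254, minus strand), makes asparagine from aspartate and glutamine and is a classic target of ATF4. It was at 11.7, 12.3 and 10.7 CPM in control replicates 1 to 3 against 14.9, 15.6 and 14.9 CPM in mutant replicates 1 to 3. The distance between the groups was wider than the range inside either. Means were 11.6 ± 0.83 CPM and 15.2 ± 0.41 CPM (SD, n = 3 each), a 1.31-fold difference. The log2 fold change of 0.39 ± 0.10 (SE; interval 0.17 to 0.61) did not pass with edgeR (adjusted p = 0.11) and passed with DESeq2 (adjusted p = 0.038), the program the study used.

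Phgdh and Psat1 encode consecutive enzymes of serine synthesis, and only the values of the former were higher in all mutants. Phgdh encodes phosphoglycerate dehydrogenase, which draws an intermediate of glycolysis into serine (ENSMUSG00000053398.9, chromosome 3, 98313170 to 98339990, minus strand). Controls were at 38.1, 24.7 and 27.3 CPM and mutants at 44.4, 49.9 and 51.6 CPM. No mutant reached down to a control, and control replicate 1 came closest. Means were 30.0 ± 7.14 CPM and 48.6 ± 3.75 CPM (SD, n = 3 each), at 1.61-fold the largest upward difference of the 10. The log2 fold change of 0.69 ± 0.16 (SE; interval 0.33 to 1.05) did not pass with edgeR on all hearts (adjusted p = 0.097) and passed with DESeq2 (adjusted p = 0.0014). With control replicate 1, the highest control, left out, edgeR also called Phgdh, at 0.90 on the log2 scale (adjusted p = 0.0087). It did so too when all genes with at least 1 count were tested (adjusted p = 0.013). In every other fit without 1 heart Phgdh did not pass (edgeR adjusted p from 0.18 to 0.26), and without control replicate 2 its log2 fold change was 0.57.

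Psat1 encodes phosphoserine aminotransferase, the next enzyme (ENSMUSG00000024640.7, chromosome 19, 15904678 to 15947337, minus strand). Controls were at 86.9, 99.3 and 89.4 CPM and mutants at 73.9, 87.6 and 79.2 CPM. Here 2 mutants were below every control, and mutant replicate 2 was just above control replicate 1. This gave a log2 fold change of -0.20 ± 0.09 (SE; edgeR adjusted p = 0.26). Within a heart, the CPM of Phgdh was 0.44, 0.25 and 0.31 of that of Psat1 in controls and 0.60, 0.57 and 0.65 of it in mutants. This ratio, formed after the values were seen, did not overlap between the groups (p = 0.1 in an exact permutation test, two-sided, which is the least that 3 against 3 can give).

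Mthfd2 encodes a mitochondrial methylene tetrahydrofolate dehydrogenase, which passes the one-carbon unit of serine on towards formate and often marks mitochondrial stress (ENSMUSG00000005667.6, chromosome 6, 83305691 to 83325908, minus strand). Controls were at 23.5, 20.4 and 23.6 CPM and mutants at 25.1, 28.5 and 28.9 CPM. The groups did not overlap, and mutant replicate 1 came nearest to the controls. Means were 22.5 ± 1.81 CPM and 27.5 ± 2.06 CPM (SD, n = 3 each). The log2 fold change of 0.29 ± 0.10 (SE; interval 0.07 to 0.51) passed neither with edgeR (adjusted p = 0.17) nor with DESeq2 (adjusted p = 0.14).

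Over the 10 genes, 5 log2 fold changes were positive and 5 negative, with a median of 0.04 beside -0.0017 over all tested genes. None passed an adjusted p of 0.05 with edgeR on all hearts, as was so for 0.0% of the 17125 genes. At an unadjusted p under 0.05 in edgeR, 3 of the 10 were higher and 0 lower, beside 9.48% of all tested genes higher and 9.98% lower (19.5% in all). DESeq2 called 2 of the 10 higher, Asns and Phgdh, and 0 lower, beside 2.67% higher and 3.43% lower among all genes to which it gave an adjusted p (6.1% in all). Groups were apart for 3 of the 10 upward and 1 downward, beside 14.3% upward and 12.8% downward among all tested genes (27.1% in all). Without control replicate 1, edgeR called 1 of the 10, Phgdh, beside 1.85% of genes higher and 2.49% lower (4.34% in all). With every gene of at least 1 count tested, it again called Phgdh only, beside 0.926% of genes higher and 1.21% lower (2.13% in all).

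**Figure D2:**
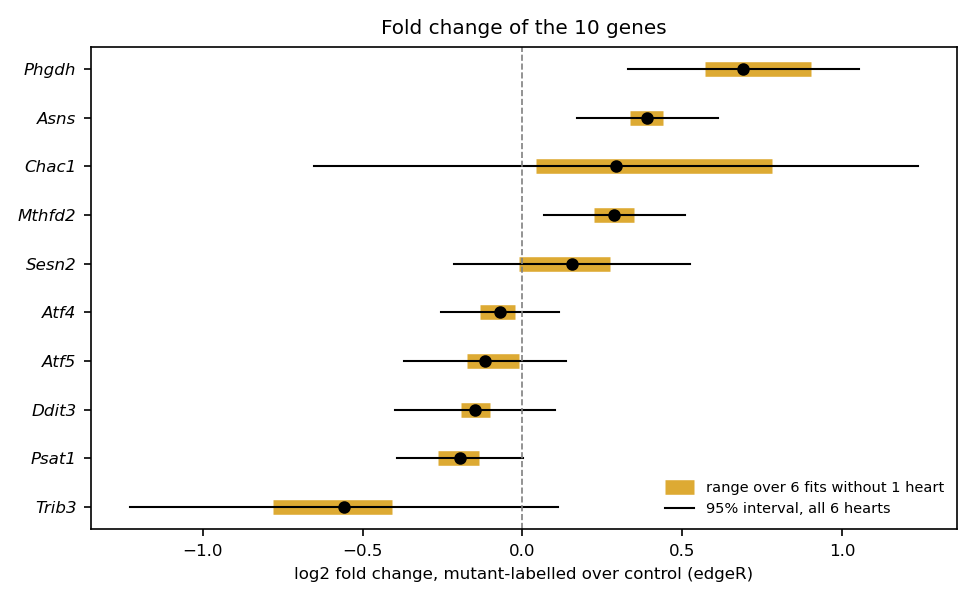
Log2 fold change of each of the 10 genes, mutant-labelled over control, with its 95% confidence interval from edgeR on all 6 hearts (black) and the range over the 6 fits that each left out 1 heart (gold). The intervals of Phgdh, Asns and Mthfd2 lie above 0, and the gold range of Sesn2 reaches -0.012.

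Dividing by kilobases of exon puts levels of different genes on a rough common scale. The length was that of all exons annotated for a gene, not of the transcripts expressed, and the order depends on it. On this scale Atf4 was the most abundant of the 10, at 39.1 CPM per kilobase in controls and 37.3 in mutants. Psat1 came next in controls at 21.6 CPM per kilobase, ahead of Phgdh at 12.1. In mutants the mean level of Phgdh, 19.6 CPM per kilobase, was close to that of Psat1, 18.9. In controls there followed Atf5 at 8.11, Mthfd2 at 6.45, Ddit3 at 5.05, Asns at 4.23 and Sesn2 at 3.81 CPM per kilobase. Trib3 at 1.39 and Chac1 at 0.21 CPM per kilobase were lowest. Asns and Sesn2, neighbours in this order, differed by less than the spread of Sesn2 between controls, whose coefficient of variation was 22.0%. That coefficient was 23.8% for Phgdh, 29.9% for Trib3 and 52.4% for Chac1, and between 6.26% (Ddit3) and 12.4% (Atf5) for the other 6 genes.

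Control replicate 3 was the highest of the 6 hearts for Atf4, Atf5, Ddit3, Trib3 and Chac1. It was also the heart with the most erythroid marker RNA, at 30383 CPM, whose part in these values was not tested. Left without that heart, the log2 fold changes of Atf4, Atf5, Ddit3 and Trib3 were -0.02, -0.01, -0.10 and -0.41, nearer to 0 than with it. That of Chac1 was further from 0, at 0.78 in place of 0.29, and none of the 5 passed with edgeR in that fit. Control replicate 2 was lowest for Chac1, Sesn2, Phgdh and Mthfd2. The mean of log2(CPM + 1) over the 10 genes was 4.01, 3.86 and 4.06 in controls and 3.99, 4.10 and 4.06 in mutants, so that the groups overlapped and control replicate 2 stood lowest. Of 10173 other genes with a mean of at least 10 CPM, those most like this mean were Prelid1, Lrp10, Bsg, Lonrf1 and Sepn1, with Pearson's r from 0.97 to 0.99 over 6 hearts, a description of points that share depth and scaling.

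Upstream of ATF4, a list of 18 genes held the 4 eIF2 kinases, genes that activate or restrain them, subunits that steer the eIF2 phosphatase, and eIF2 with its exchange factor eIF2B. Beside the counts of this and the later pathway lists stand the shares over all genes. At an unadjusted p under 0.05 in edgeR these were 9.48% higher and 9.98% lower. With DESeq2 they were 2.67% and 3.43%, and groups were apart for 14.3% upward and 12.8% downward. None of the 18 passed after adjustment with edgeR or DESeq2, and the median log2 fold change was 0.05. An unadjusted p under 0.05 was reached by 1 higher and 0 lower genes. The 1 gene was Eif2b2, a subunit of eIF2B, at 27.6, 26.2 and 28.3 CPM in controls and 29.5, 31.2 and 32.7 CPM in mutants (log2 fold change 0.19). The 4 kinases, named after their values were seen, had log2 fold changes of 0.0017 for Eif2ak1 (the haem sensor HRI), 0.06 for Eif2ak2 (PKR), 0.10 for Eif2ak3 (the ER sensor PERK) and 0.14 for Eif2ak4 (the amino acid sensor GCN2).

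Other established targets of ATF4 and CHOP formed a list of 23 genes, 20 of which could be tested. Their median log2 fold change was -0.07, with 9 positive and 11 negative values, and none passed after adjustment with either tool. At an unadjusted p under 0.05, 1 was higher and 0 lower. It was Pycr1, which makes proline in mitochondria, at 8.51, 6.33 and 8.27 CPM in controls and 10.8, 8.39 and 10.6 CPM in mutants (log2 fold change 0.37, edgeR adjusted p = 0.25). Fgf21 and Gdf15, hormones that muscle secretes under mitochondrial stress, are named after their values were seen. Fgf21 had 1 count in control replicate 2 and 0 counts in the other 5 hearts. Gdf15 was at 0.81, 0.82 and 1.61 CPM in controls and 0.90, 0.96 and 0.92 CPM in mutants, with control replicate 3 above the rest.

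Around Phgdh, Psat1 and Mthfd2, a list of 10 further serine, glycine and one-carbon enzymes had 5 positive and 5 negative log2 fold changes and a median of -0.02. At an unadjusted p under 0.05, 2 were higher and 1 lower, and none passed after adjustment with edgeR. Gldc, the decarboxylase of the glycine cleavage system, was at 2.0, 1.29 and 1.33 CPM in controls and 3.47, 3.27 and 2.67 CPM in mutants. The groups did not overlap, and the log2 fold change of 1.02 ± 0.24 (SE) passed with DESeq2 (adjusted p = 0.0094) and not with edgeR on all hearts (adjusted p = 0.10). As for Phgdh, edgeR called Gldc without control replicate 1 (adjusted p = 0.031) and with all genes of at least 1 count (adjusted p = 0.045). These fits called 4.34% and 2.13% of all genes. In every other fit without 1 heart Gldc did not pass (edgeR adjusted p from 0.16 to 0.27). Mthfd1l, the mitochondrial synthetase that releases formate after MTHFD2, was at 27.2, 16.8 and 22.8 CPM in controls and 34.3, 31.1 and 27.6 CPM in mutants (log2 fold change 0.48, edgeR adjusted p = 0.19). Shmt2, the mitochondrial hydroxymethyltransferase that takes the one-carbon unit from serine, was at 82.8, 88.2 and 97.7 CPM in controls and 78.2, 72.0 and 76.6 CPM in mutants (log2 fold change -0.24, edgeR adjusted p = 0.17). Psph, which completes serine synthesis and is named after its values were seen, had a log2 fold change of -0.20, as Psat1 did. Its means were 14.1 ± 1.10 CPM in controls and 12.3 ± 0.64 CPM in mutants (SD, n = 3 each), without overlap (edgeR adjusted p = 0.31).

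**Figure D3:**
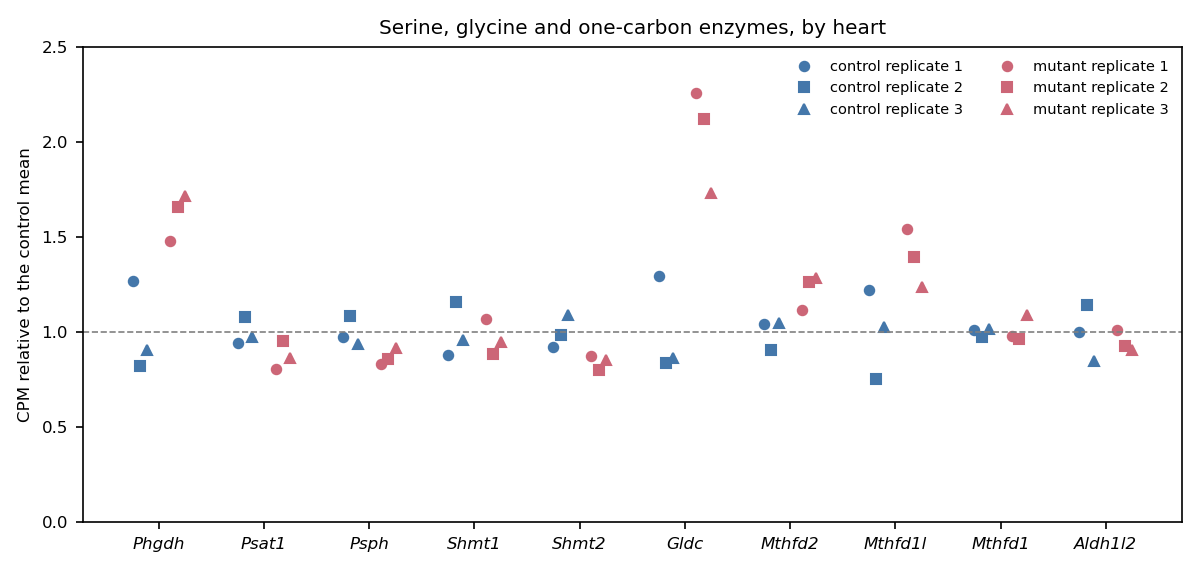
CPM of 10 serine, glycine and one-carbon enzymes in each heart, divided by the mean of the 3 controls (dashed line at 1, linear axis from 0). Phgdh, Gldc, Mthfd2 and Mthfd1l have all mutants above all controls, Shmt2 and Psph have them below, and the other 4 overlap.

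Amino acid transporters had a median log2 fold change of 0.19, with 8 of 10 genes positive and 2 negative. At an unadjusted p under 0.05, 4 were higher and 1 lower, beside 9.48% and 9.98% of all tested genes. None passed after adjustment with edgeR on all hearts. DESeq2 called 2 higher and 1 lower, beside 2.67% and 3.43% of all genes to which it gave an adjusted p. Slc1a5, the glutamine carrier ASCT2, was at 17.1, 23.9 and 20.4 CPM in controls and 31.4, 35.9 and 29.8 CPM in mutants (log2 fold change 0.66, adjusted p = 0.083 from edgeR and 7.7e-04 from DESeq2). Slc43a1, a carrier of large neutral amino acids, was at 10.5, 8.27 and 9.07 CPM in controls and 14.9, 14.6 and 13.6 CPM in mutants (log2 fold change 0.63, adjusted p = 0.081 from edgeR and 9.0e-04 from DESeq2). Slc7a5, the light chain of the leucine exchanger LAT1, was at 48.2, 42.6 and 53.8 CPM in controls and 55.9, 58.7 and 61.1 CPM in mutants (log2 fold change 0.28, edgeR adjusted p = 0.18). In these 3 genes every mutant lay above every control, as was so for 14.3% of all tested genes. Slc38a2, the glutamine and alanine carrier SNAT2, which amino acid shortage is known to induce, went the other way without overlap. It was at 359, 406 and 439 CPM in controls and 323, 287 and 303 CPM in mutants (log2 fold change -0.40, adjusted p = 0.11 from edgeR and 0.0058 from DESeq2). With all genes of at least 1 count, edgeR called Slc1a5 (adjusted p = 0.011) and Slc43a1 (adjusted p = 0.018). Without control replicate 1 it called Slc43a1 (adjusted p = 0.021) and Slc38a2 (adjusted p = 0.038), and no other fit without 1 heart called either.

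A further list held 13 known ATF4 target genes, for tRNA synthetases and the tRNA exporter Xpot. On it 13 of 13 log2 fold changes were positive, from 0.03 to 0.22, with a median of 0.12. Over all tested genes, 8509 of 17125 were positive. The 13 genes were measured in the same hearts, so their signs do not count as independent. The 1 gene with an unadjusted p under 0.05 was Aars, for alanine, at 83.9, 73.4 and 89.8 CPM in controls and 92.5, 92.9 and 102 CPM in mutants. Of 8 other cytosolic synthetase genes, 7 were positive and 1 negative, with a median of 0.14. Here 3 were higher at an unadjusted p under 0.05: Vars (log2 fold change 0.40), Farsa (0.21) and Qars (0.16). Groups were apart upward for 6 of the 13 and 5 of the 8 genes and downward for 0. Over all tested genes the shares were 14.3% and 12.8%, and genes of a list measured in the same hearts are not independent. DESeq2 and edgeR called 0 genes of either list after adjustment.

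Of 20 genes of the ER unfolded protein response governed by XBP1 and ATF6, 6 had an unadjusted p under 0.05, 3 of them higher and 3 lower, and the median log2 fold change was -0.01. The higher ones were Pdia6 and Pdia4, disulphide isomerases of the ER, and the chaperone gene Dnajb11, with log2 fold changes of 0.25, 0.25 and 0.17. The lower ones were Herpud1, which takes part in ER-associated degradation, Xbp1 and Dnajc3, with -0.43, -0.32 and -0.18. DESeq2 called Pdia6 higher (adjusted p = 0.025) and Herpud1 lower (adjusted p = 0.041), and edgeR on all hearts called neither. Without control replicate 1, edgeR called Herpud1 lower (adjusted p = 0.027) and Pdia4 higher (adjusted p = 0.046). No other fit without 1 heart called either. Of 10 mitochondrial chaperones and proteases, 2 were positive and 8 negative, with a median of -0.11. At an unadjusted p under 0.05, 0 were higher and 3 lower, namely Dnaja3 (-0.24), Trap1 (-0.20) and Clpx (-0.19), and none passed after adjustment with either tool.

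Among 5 relatives of Sesn2, Trib3 and Chac1, 2 were positive and 3 negative, with a median of -0.29. Sesn1, a sestrin better known as a p53 target, was at 46.9, 54.1 and 48.8 CPM in controls and 39.4, 40.4 and 42.3 CPM in mutants (log2 fold change -0.29). It passed narrowly with DESeq2 (adjusted p = 0.0497) and not with edgeR (adjusted p = 0.13). Trib2, a tribbles pseudokinase like Trib3, had a log2 fold change of -0.29 and passed with neither.

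**Figure D4:**
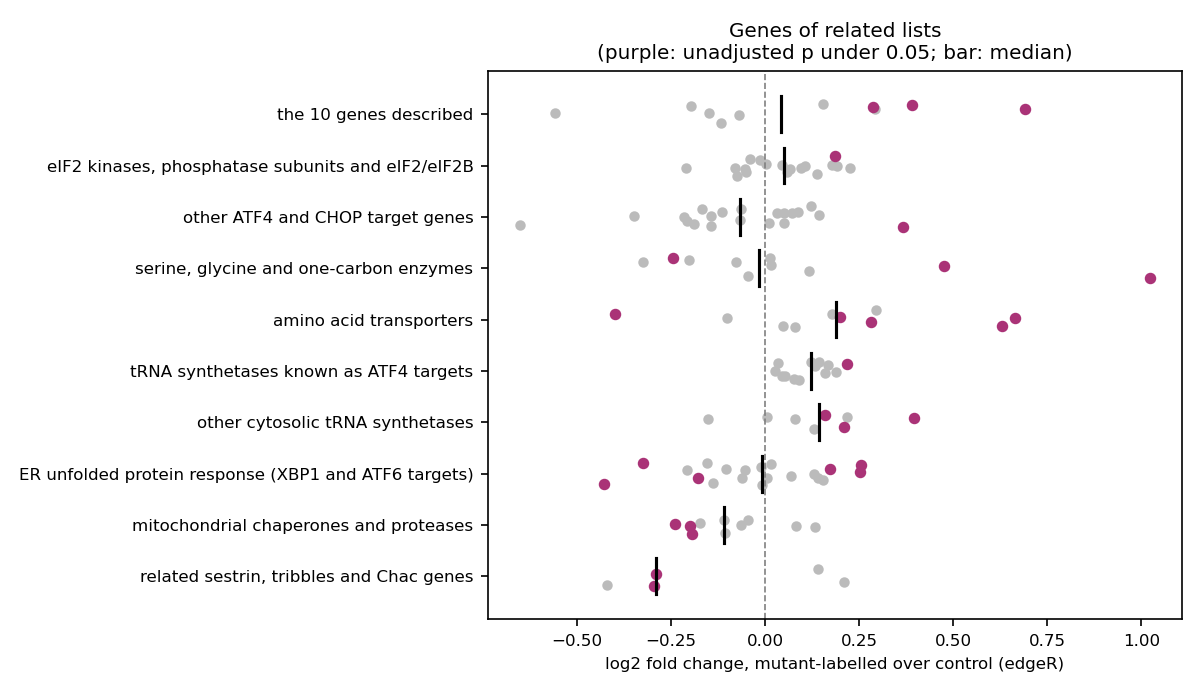
Log2 fold changes, mutant-labelled over control (edgeR), of the tested genes of each list, 1 point a gene, with the median as a black bar and genes at an unadjusted p under 0.05 in purple. The 10 genes spread from -0.56 (Trib3) to 0.69 (Phgdh), and the kinase and eIF2 genes lie between -0.21 and 0.23.

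Marker lists of the cell types in the heart were mixed, with members higher and lower in the same list, and edgeR on all hearts called none of their genes after adjustment. Genes given here as examples were named after their values were seen, and beside the DESeq2 counts stand 2.67% higher and 3.43% lower over all genes. The summed level of 5 epicardial markers was 142, 140 and 138 CPM in controls and 161, 169 and 148 CPM in mutants, without overlap, but 3 of the 5 log2 fold changes were positive and 2 negative, with a median of 0.0046. DESeq2 called 1 of them, Upk3b, higher (log2 fold change 0.57), while Upk1b was at -0.28. Of 11 erythroid markers, 3 were positive and 8 negative, with a median of -0.45, and DESeq2 called 2 higher and 0 lower. The 3 positive ones were the embryonic globin genes Hbb-bh1, Hbb-y and Hba-x, with Hbb-bh1 at 3.05, 1.06 and 1.67 CPM in controls and 14.0, 15.7 and 16.5 CPM in mutants, while the adult globin gene Hbb-bs was at -1.85 on the log2 scale. Of 8 cardiomyocyte markers, 3 were positive and 5 negative, with a median of -0.14, and DESeq2 called 2 higher, Myl7 and Myh6 (log2 fold changes 0.69 and 0.48), and 0 lower. Of 5 fibroblast markers DESeq2 called 2 lower, Postn and Dcn (log2 fold changes -0.43 and -0.46), and of 4 smooth muscle markers 1 higher, Cnn1 (0.48), and 1 lower, Myh11 (-2.40). It called none of the endothelial, macrophage and neural markers. The summed levels of all these lists but the epicardial one overlapped between the groups, liver markers summed to at most 3.81 CPM, and lung markers to at most 0.034 CPM. The part of these cells in the values of Phgdh, Asns, Mthfd2, Gldc and the transporters was not tested.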

How the data were processed

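The authors mapped paired-end reads of 6 whole hearts to GRCm38 with STAR 2.4.2a and GENCODE vM6 and deposited raw counts per gene from summarizeOverlaps, not normalized. A second deposited table holds the authors' own DESeq2 comparison (mean signal, log2 fold change, p-value), and only its identifiers and symbols were used. Columns were matched to samples by title. The members and lists were chosen with earlier results of these data known.

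In R 4.3.3, edgeR 4.0.16 was run with filterByExpr (minimum count 10, minimum total 15), TMM scaling and condition as the only term, p-values being adjusted by Benjamini-Hochberg over every gene tested, with a threshold of 0.05. SE is the size of the log2 fold change over the square root of F. With a common biological coefficient of variation of 0.15, precision depended on the hearts more than on depth except for the lowest genes. The closest pair of libraries still differed beyond counting noise (chi-square per degree of freedom 20.5). Gene positions and exon lengths are from GENCODE vM21. The main edgeR fit and the DESeq2 fit were run on simulated counts with planted changes as a self-test. The simulation held none of the Xist or erythroid differences between these hearts and does not bear on the difference between tools. Named were the 10 members, in each list any gene past the threshold and up to 3 a direction with the smallest unadjusted p under 0.05, and the 5 genes most like the members' mean. Alternatives were RLE scaling, DESeq2 1.42.0, 2 other filters, thinning to the smallest total, omission of single hearts, a replicate block and, chosen after seeing the data, an Xist covariate.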

Additional observations from a re-analysis of the deposited data

How the results depend on the processing

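With all 6 hearts, edgeR called 0 members, 0 genes of the related lists and 0 genes in all at an adjusted p under 0.05 (unadjusted, 1624 genes were higher and 1709 lower). DESeq2 called 2 members higher, 4 list genes higher and 3 lower, and 443 genes higher and 570 lower in all. Testing all genes with at least 1 count, edgeR called 1 member higher, 3 list genes higher, and 262 genes higher and 341 lower in all. Leaving out single hearts gave from 0 to 1 members higher, 0 to 3 list genes higher, 0 to 2 list genes lower, 0 to 320 genes higher and 0 to 431 lower in all, each upper end without control replicate 1, where the member was Phgdh. Sesn2 ran from -0.012 without control replicate 2, a change of sign, to 0.28 without control replicate 3. The replicate number as a block gave 1 gene higher and 13 lower in all and no member. Hearts sharing a number did not deviate together over all tested genes (r = 0.0030, -0.12 and -0.11), and the numbers were not taken as a pairing. With 3 hearts a group, these values cannot show whether hearts of the 2 groups shared litters. RLE scaling, a filter of 1 CPM in 3 hearts, which removed Chac1, thinning and the Xist covariate, chosen after seeing the data, called no member. Over all settings the adjusted p of Phgdh ran from 0.0014 to 0.26 and its log2 fold change from 0.57 to 0.90, and those of Asns from 0.038 to 0.29 and from 0.34 to 0.44. The cause of the difference between tools was not tested.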

Other observations

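Eif2s3x, an X-linked gene for a subunit of eIF2 that is known to escape X inactivation, is named after its values were seen. It was at 226 and 225 CPM in control replicates 1 and 2 and 207 CPM in mutant replicate 3, and at 329, 356 and 350 CPM in the 3 hearts that expressed Xist. Its Y-linked copy Eif2s3y was at 73.7, 75.0 and 60.1 CPM in the first 3 of these hearts and had 0 counts in the others. With a covariate from Xist, chosen after seeing the data, the log2 fold changes of Phgdh and Asns were 0.75 and 0.42, and no member was called by edgeR.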
